A study of Mus musculus with 8 samples.

Results

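The 9 myogenic transcription factor genes Pax3, Pax7, Myf5, Myod1, Myog, Myf6, Mef2a, Mef2c and Mef2d were followed in skeletal muscle of newborn mice. They were chosen by name, each has a row of its own among the 23336 gene rows of the deposited table, and 8 of the 9 had enough reads to be tested. RNA depleted of ribosomal RNA had been sequenced from 4 samples labelled ΔDMR1-U2, a deletion allele at Igf2, and from 4 labelled wild-type. All were labelled as from C57BL/6 females at postnatal day 2, but Xist in 1 library did not match that label (below). The labels name the libraries 1A, 1B, 2 and 3 in each group. The study text counts 4 mice in each group. The sources used here do not say which muscle was dissected, which parent transmitted the deletion or where it begins and ends.

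Skeletal muscle forms through a short cascade of transcription factors. Pax3 and Pax7, paired-box proteins, mark muscle progenitors, and Pax7 remains in the satellite cells that grow and repair muscle after birth. The basic helix-loop-helix (bHLH) factors Myf5 and Myod1 commit cells to the myoblast fate, Myog (myogenin) drives their terminal differentiation, and Myf6, also called MRF4, is known for its expression in differentiating and mature fibres. They bind the E-box, CANNTG, as dimers with E proteins, and the MADS-box factors Mef2a, Mef2c and Mef2d bind an AT-rich site and act with them on muscle genes.

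Library totals ran from 16084413 to 26913636 counts. Igf2as, the gene antisense to Igf2 at the deleted locus, was at 5.54 to 6.18 CPM (counts scaled to library size) in the ΔDMR1-U2 libraries and at 54.4 to 72.2 CPM in the wild-type ones. Fibre genes were abundant, the 9 fibre markers (Ttn, Acta1, Ckm and others) summing to between 161300 and 208374 CPM, while the 4 cardiac markers summed to at most 1.53 CPM. Several libraries stood apart. ΔDMR1-U2 library 1A, labelled female, had 2.50 CPM of Xist, which coats the silenced X in female cells, against 1269 to 1894 CPM in the other 7. ΔDMR1-U2 library 1B lay at the end of the first principal component and had 601 CPM of white adipocyte markers against 179 to 266 CPM elsewhere. The 5 cartilage and bone markers summed to 42.1 CPM in ΔDMR1-U2 library 3 and 59.1 CPM in wild-type library 1A, against 359 to 1281 CPM in the other 6. Member fold changes were also computed without each of these libraries. In bulk tissue fewer cells of a type and less RNA per cell cannot be told apart.

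No tested factor passed the test for a difference between the genotypes, which does not show that their levels were equal. The edgeR quasi-likelihood test called 0 of the 8, where it called 1.13% of all 15241 genes tested (0.512% higher, 0.617% lower in ΔDMR1-U2), and 0 of the 8 had an unadjusted p under 0.05, where 21.3% of all genes did. Fitted fold changes of ΔDMR1-U2 over wild-type lay between 0.838 for Mef2c and 1.06 for Myf5, and their 95% intervals between 0.690 and 1.22. In all 8 the libraries of the 2 groups overlapped in CPM, whereas they did not overlap in 12.8% of all genes. Of the 8 log2 fold changes 7 were negative, with a median of -0.10, beside a median of -0.001 and 50.2% negative values over all genes. Leaving out wild-type library 1A brought that median to -0.03, and Myod1 and Myog then had values above 0 (0.0016 and 0.018).

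**Figure D1:**
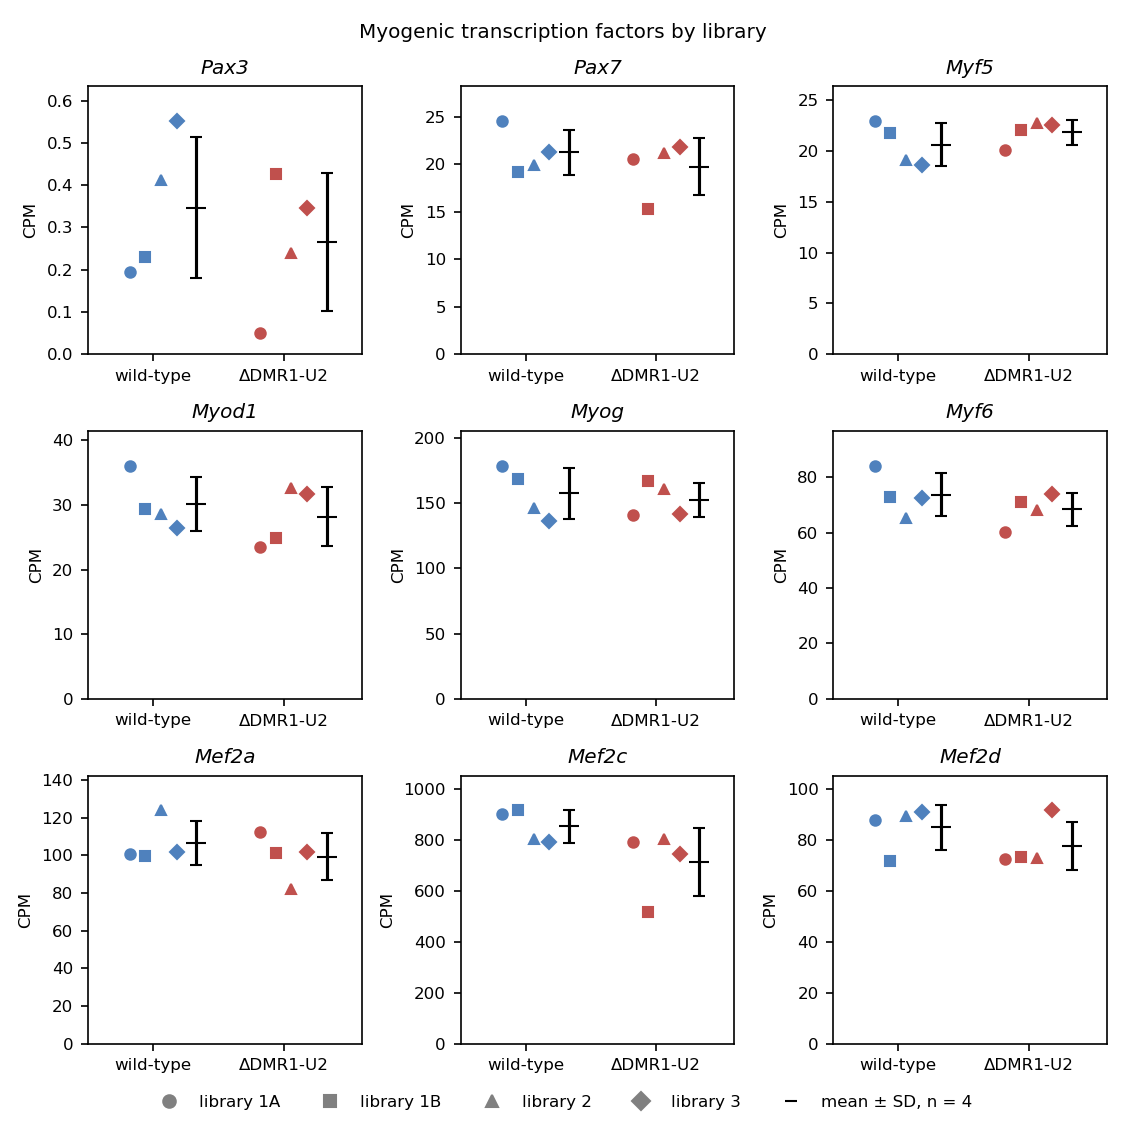
Expression level in CPM (linear axes from 0) of each of the 9 genes in every library, with a symbol for each library name and the mean ± SD (n = 4) beside each group. The groups overlap for every gene, and Mef2c and Pax7 are lowest in ΔDMR1-U2 library 1B, at 520 and 15.4 CPM.

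**Figure D2:**
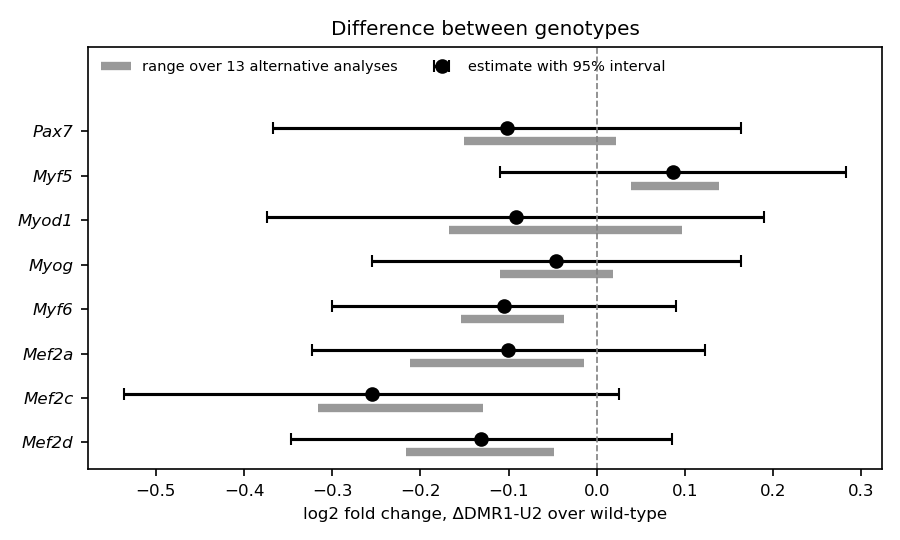
The log2 fold change of ΔDMR1-U2 over wild-type with its 95% interval for the 8 tested factors, and below each a grey bar for its range over 13 alternative analyses. Every interval includes 0, and only Myf5 has an estimate above 0, at 0.09.

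Because the bHLH and MEF2 proteins bind DNA at known letters, promoter stretches of members that hold such letters are shown for Myog, Mef2c and Mef2a. RefSeq windows of 300 bases, 250 before and 50 after a start site, were at hand for 6 of the 9 genes (8 windows, 3 of them for Mef2c). Capitals mark an E-box or a MEF2 site, and all 3 stretches are from GRCm38, 5′ to 3′ on the gene's strand. Bases are counted from the start site, with -1 the base before it.
Myog, chr1:134289854-134290003, plus strand: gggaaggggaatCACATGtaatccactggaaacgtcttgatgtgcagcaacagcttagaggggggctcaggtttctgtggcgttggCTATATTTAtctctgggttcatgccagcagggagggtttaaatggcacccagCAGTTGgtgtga
Mef2c, first start, chr13:83503924-83504033, plus strand: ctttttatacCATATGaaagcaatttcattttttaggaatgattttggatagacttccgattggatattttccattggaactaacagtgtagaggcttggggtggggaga
Mef2a, chr7:67372849-67372908, minus strand: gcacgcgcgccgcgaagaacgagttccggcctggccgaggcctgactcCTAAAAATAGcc

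The Myog window held 2 E-boxes, CACATG from -138 and CAGTTG from -12, and between them a match to all but the last base of the MEF2 site, CTATATTTA from -64. The first Mef2c window held E-boxes from -234 and -100, of which the stretch shows the latter. Outside the stretch, from -145, it also held a match to all but the first base of the MEF2 site. On the opposite strand that free base is the last. The Mef2a window held a full MEF2 site across its start, from -2 to 8. No E-box or full MEF2 site was found in the windows of Pax7, Myf5 and Mef2d, nor a full MEF2 site in that of Myog. Both motifs were searched on both strands. The same search found an E-box in 72.3% of all 32851 promoter windows and a full MEF2 site in 3.19%. A MEF2 site with its last base free, read on either strand, was found in 7.70%. These are matches of letters: binding was not measured in these samples.

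Ordered by level per kilobase of exon, Myog stood highest and Pax3 lowest. Myog was at 105 ± 13.02 CPM per kb in wild-type and 102 ± 8.81 in ΔDMR1-U2 (SD, n = 4 each). Myf6 followed at 58.3 ± 6.14 and 54.1 ± 4.68 CPM per kb, and Mef2c at 54.3 ± 4.13 and 45.5 ± 8.46. Below them came Myod1 at 16.2 ± 2.24 CPM per kb in wild-type, Mef2d at 14.2 ± 1.48, Myf5 at 9.90 ± 1.01, Mef2a at 7.25 ± 0.790, Pax7 at 3.63 ± 0.404 and Pax3 at 0.0560 ± 0.0269. Over the 8 libraries the ranges of neighbours in this order were apart except for Myf6 with Mef2c, at 47.7 to 66.6 against 33.1 to 58.3 CPM per kb, and Myod1 with Mef2d, at 12.6 to 19.4 against 12.03 to 15.3. The order of the MEF2 genes depends on the length used, because the exons of all transcripts add up to 15715 bases for Mef2c and 14681 for Mef2a but the longest single transcript has 6277 and 5538. With the latter length Mef2c was highest of the 9, at 136 CPM per kb in wild-type, and Mef2a was the fourth, at 19.2.

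**Figure D3:**
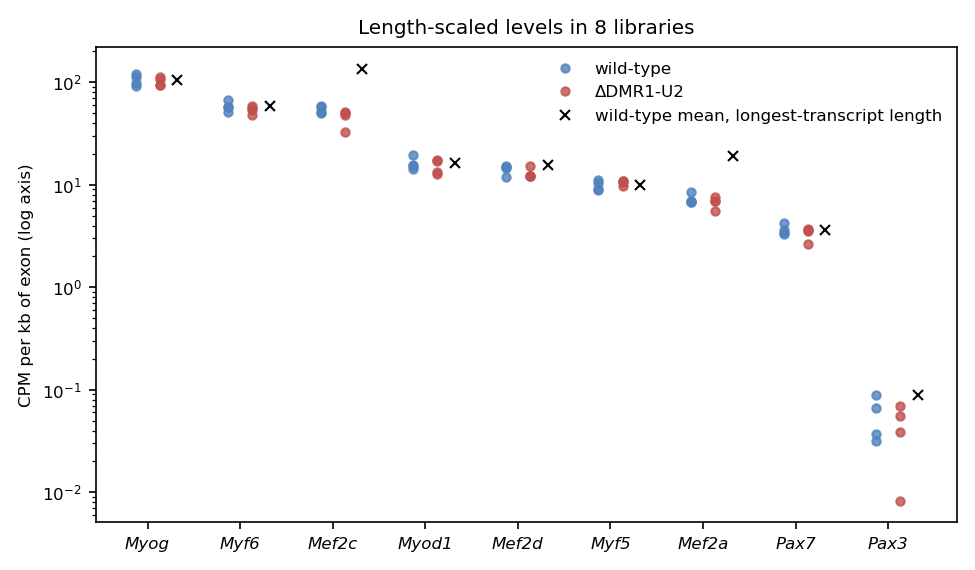
Levels per kilobase of exon on a log axis for the 9 genes in the 8 libraries, ordered by the wild-type mean, with a cross for the wild-type mean when the longest transcript is used as the length. Myog leads at about 105 CPM per kb, the crosses of Mef2c and Mef2a lie above their points, and Pax3 lies far below the others.

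Among the progenitor factors, Pax7 carried nearly all of the paired-box signal. Positions are on mm10 from the GENCODE annotation. Pax3, on chromosome 1 from 78101267 to 78197134, was counted 1, 8, 4 and 7 times in ΔDMR1-U2 (libraries 1A, 1B, 2, 3 in order) and 3, 6, 11 and 13 times in wild-type. Its summed counts of 20 and 33 give 0.265 CPM (95% Poisson interval 0.162 to 0.410) and 0.359 CPM (0.247 to 0.504), intervals that cover counting error only. The gene did not pass the filter on low counts. So few counts limit which differences could be detected, and the smallest detectable one was not computed. Fitted with no filter, the log2 fold change of Pax3 came to -0.42 (SE 0.51, edgeR adjusted p = 0.701). Pax3 made up 1.54% ± 0.749 of the length-scaled sum of both genes in wild-type and 1.33% ± 0.970 in ΔDMR1-U2, or 2.44% and 2.11% with the longest transcript as length.

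Pax7, the satellite cell factor, lies on chromosome 4 from 139737062 to 139833528. It was at 20.6, 15.4, 21.2 and 21.8 CPM in ΔDMR1-U2 (1A, 1B, 2, 3 in order), and at 24.6, 19.2, 19.96 and 21.3 CPM in the wild-type ones. Library 1B of ΔDMR1-U2 was the lowest of all 8 and wild-type library 1A the highest, while the other 6 lay within 19.2 to 21.8 CPM. The log2 fold change was -0.10 (SE 0.12, edgeR adjusted p = 0.661), and it was 0.0029 without library 1B. Of 12 other satellite cell markers tested, 0 were called and their median log2 fold change was -0.003. Values ranged from -0.32 for Vcam1, an adhesion molecule, to 0.24 for Sdc4, a heparan sulphate proteoglycan. At an unadjusted p under 0.05 by edgeR were 3 of the 12, 1 higher and 2 lower in value, beside 21.3% of all genes in either direction. The groups did not overlap in CPM for 2 of the 12, Vcam1 and Sdc4, beside 12.8% of all genes. The summed level of the 12 was 606 to 658 CPM in ΔDMR1-U2 and 621 to 656 CPM in wild-type. The most abundant of them were Cd34, a sialomucin also found on endothelial cells, at 182 ± 14.3 and 186 ± 10.6 CPM, and Megf10, a receptor of satellite cells, at 85.4 ± 4.73 and 82.5 ± 6.83 CPM in ΔDMR1-U2 and wild-type.

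The commitment factors Myf5 and Myod1 lay between 18.6 and 36.1 CPM in all libraries. Myf5, on chromosome 10 from 107482908 to 107486134, was at 20.1, 22.1, 22.7 and 22.6 CPM in ΔDMR1-U2 (1A, 1B, 2, 3 in order) and at 23.0, 21.8, 19.1 and 18.6 CPM in wild-type. The highest library of the 8 was a wild-type one, although 3 of the 4 ΔDMR1-U2 libraries lay above the other 3 wild-type libraries. Its log2 fold change was 0.09 (SE 0.09, 95% interval -0.11 to 0.28, edgeR adjusted p = 0.606). Myod1, on chromosome 7 from 46376474 to 46379099, was at 23.5, 24.9, 32.6 and 31.7 CPM in ΔDMR1-U2 and at 36.1, 29.3, 28.7 and 26.4 CPM in wild-type. The ΔDMR1-U2 libraries fell into a lower pair, 1A and 1B, and a higher pair, 2 and 3, with 3 of the wild-type libraries between them. The log2 fold change was -0.09 (SE 0.13, edgeR adjusted p = 0.713), and 0.10 without libraries 1A and 1B of ΔDMR1-U2. Myod1 and Mef2a share chromosome 7 with the deleted locus, at 96280593 and 75286834 bases from Igf2as.

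The differentiation factors Myog and Myf6 were more abundant. Myog, on chromosome 1 from 134289989 to 134292548, was at 141, 167, 160.3 and 142 CPM in ΔDMR1-U2 (1A, 1B, 2, 3 in order) and at 178, 169, 146 and 136 CPM in wild-type. The wild-type libraries held both the highest and the lowest value. With a log2 fold change of -0.05, an SE of 0.10 and a 95% interval from -0.26 to 0.16, Myog had the smallest difference of the 8 (adjusted p = 0.819, edgeR). Myf6, on chromosome 10 from 107492853 to 107494737, was at 60.2, 71.0, 68.3 and 74.0 CPM in ΔDMR1-U2 and at 84.1, 72.7, 65.4 and 72.4 CPM in wild-type. Its extremes were ΔDMR1-U2 library 1A and wild-type library 1A, and the other 6 libraries lay within 65.4 to 74.0 CPM. The log2 fold change was -0.11 (SE 0.09, edgeR adjusted p = 0.518).

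Shares within the bHLH family overlapped between the groups for Myog, Myf6 and Myod1. Of the summed length-scaled level, Myog made up 56.1% ± 2.64 in ΔDMR1-U2 and 55.5% ± 1.78 in wild-type. Myf6 made up 29.8% ± 1.73 and 30.8% ± 1.83, and Myod1 8.33% ± 1.18 and 8.52% ± 0.455. The share of Myf5 was 5.78% ± 0.196 in ΔDMR1-U2, from 5.52% to 5.98%, and 5.22% ± 0.101 in wild-type, from 5.09% to 5.33%, so that its groups did not overlap. CPM values of single genes did not overlap in 12.8% of all genes, but no such rate was computed for shares or ratios. Myf5 and Myf6 are neighbours on chromosome 10, separated by 6718 bases and transcribed from the same strand. Their ratio of levels per kilobase, Myf6 over Myf5, draws on values that also enter the share of Myf5. This ratio was 4.95, 5.31, 4.96 and 5.41 in ΔDMR1-U2 (1A, 1B, 2, 3 in order) and 6.04, 5.50, 5.64 and 6.42 in wild-type. All ΔDMR1-U2 values lay below all wild-type values, with means of 5.15 ± 0.235 and 5.90 ± 0.417. This was the only ratio of 7 computed between members whose groups did not overlap; it was picked out after its values were seen, and no test is given. Myog over Myod1, a comparison of the differentiation with the commitment factor, was 6.87 ± 1.26 in ΔDMR1-U2 and 6.53 ± 0.441 in wild-type, and Myog over Pax7 was 31.1 ± 7.87 and 29.2 ± 3.84.

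Mef2c had the most counts of all members and the lowest p. It lies on chromosome 13 from 83504034 to 83667080 and was at 792, 520, 804 and 746 CPM in ΔDMR1-U2 (1A, 1B, 2, 3 in order), and at 903, 917, 804 and 792 CPM in wild-type. Library 1B of ΔDMR1-U2 stood alone at the bottom, and ΔDMR1-U2 libraries 1A and 2 overlapped the lower wild-type pair, 2 and 3. The log2 fold change was -0.26 (SE 0.13, 95% interval -0.54 to 0.03, edgeR adjusted p = 0.274), and the lowest adjusted p over its alternatives was 0.190. A two-sided exact permutation test of the log2 CPM gave p = 0.0857, unadjusted, the lowest of the 8 members, where 4 against 4 samples can reach 0.0286. Without library 1B the log2 fold change was -0.13. In that library white adipocyte markers summed to 601 CPM against 179 to 266 CPM in the other 7, and their part in the low Mef2c and Pax7 values was not tested. Fibre markers in it summed to 161300 CPM, the lowest of the 8 libraries, while endothelial markers, of a cell type that also expresses Mef2c, were at 475 CPM, within the 452 to 511 CPM of the others.

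Mef2a and Mef2d did not pass the test either. Mef2a, on chromosome 7 from 67231163 to 67372858, was at 112, 101, 82.4 and 102 CPM in ΔDMR1-U2 (1A, 1B, 2, 3 in order) and at 101, 99.7, 124 and 102 CPM in wild-type. Library 2 was the lowest of ΔDMR1-U2 and, under the same name, the highest of wild-type, and the other 6 lay within 99.7 to 112 CPM. Mef2d, on chromosome 3 from 88142372 to 88172086, was at 72.7, 73.4, 72.8 and 91.6 CPM in ΔDMR1-U2 and at 87.7, 72.0, 89.5 and 91.1 CPM in wild-type. Its libraries formed a low level of 72.0 to 73.4 CPM, 3 of ΔDMR1-U2 and 1 of wild-type, and a high level of 87.7 to 91.6 CPM, 1 of ΔDMR1-U2 and 3 of wild-type. The log2 fold changes were -0.10 for Mef2a (SE 0.10, edgeR adjusted p = 0.599) and -0.13 for Mef2d (SE 0.10, edgeR adjusted p = 0.466). Exons of Mef2a overlap Lysmd4, and those of Mef2d overlap 1700113A16Rik, on the opposite strand, so with the strand setting of the counting not given in the sources used here some reads cannot be told apart. Mef2c made up 71.6% ± 3.20 of the length-scaled MEF2 sum in wild-type and 69.4% ± 4.74 in ΔDMR1-U2, Mef2d 18.8% ± 2.36 and 20.1% ± 3.10, and Mef2a 9.58% ± 1.21 and 10.5% ± 2.097. With the longest transcript as length the order of the smaller shares turned: Mef2d made up 9.25% in wild-type and 9.98% in ΔDMR1-U2, and Mef2a 11.3% and 12.5%.

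**Figure D4:**
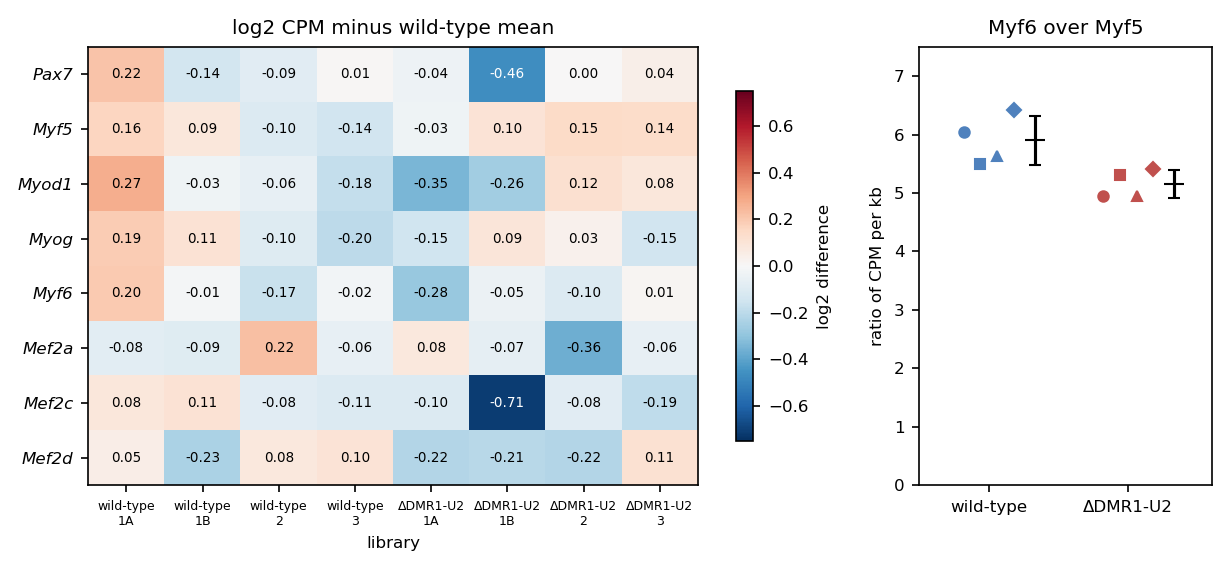
Left, log2 CPM of the 8 tested factors in each library minus the wild-type mean, in colour and as numbers; right, the ratio of Myf6 to Myf5 levels per kilobase by library with mean ± SD (n = 4). Wild-type library 1A is above the wild-type mean for 7 of 8 genes, ΔDMR1-U2 library 1B is at -0.71 for Mef2c, and the Myf6 to Myf5 ratios of the groups do not overlap.

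Wild-type library 1A was above the wild-type mean for 7 of the 8 genes, Mef2a being the exception, with a median log2 difference of 0.175, and it also had the highest sum of fibre markers, 208374 CPM. ΔDMR1-U2 library 1A was above that mean for 1 gene, Mef2a, and library 3 of ΔDMR1-U2 for 5, with a median of 0.03, the highest of its group. These were also the libraries, wild-type 1A and ΔDMR1-U2 3, with the lowest cartilage and bone marker sums, 59.1 and 42.1 CPM. The part of fibre and cartilage content in the member values was not tested. The coefficient of variation over all 8 libraries ran, among the tested members, from 8.11% for Myf5 to 15.5% for Mef2c. The authors' deposited table likewise lists no member under an adjusted p of 0.05, a threshold that 0.887% of the 20187 genes with a value pass in it. Its smallest p among the members is 0.0664 for Mef2c, where wild-type is 1.19 times ΔDMR1-U2.

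For each tested factor the genes with the most similar profile over the 8 libraries were taken as those with the highest Pearson correlation of log2 CPM among 15233 genes. They describe likeness only and were picked as the highest of many, so no p is given, and the libraries share their group. For Mef2c these were Zfp41 (r = 0.997, Spearman 0.929) and Vdac3 (r = 0.992, Spearman 0.976), a channel of the outer mitochondrial membrane, and with library 1B of ΔDMR1-U2 left out r was 0.984 and 0.986. For Pax7 they were Mex3b (r = 0.987, Spearman 0.952), an RNA-binding protein, and Hic1 (r = 0.964, Spearman 0.786), a zinc-finger repressor, with r = 0.9745 and 0.869 without that library. Myog was followed most closely by Psmd8 (r = 0.985, Spearman 0.976), a proteasome subunit, and Phospho2 (r = 0.945, Spearman 0.905). Myod1 was closest to Urb2 (r = 0.966, Spearman 0.952) and Limk1 (r = 0.946, Spearman 0.976), a kinase of the actin cytoskeleton. Myf5 was closest to 4921507L20Rik (r = 0.933, Spearman 0.952) and St6galnac5 (r = 0.925, Spearman 0.833), and Myf6 to Spg7 (r = 0.967, Spearman 0.857), a mitochondrial protease, and 9430023L20Rik (r = 0.956, Spearman 0.833). Mef2a was closest to Zfp828 (r = 0.963, Spearman 0.881) and Appbp2 (r = 0.962, Spearman 0.881), and Mef2d to Plekhg5 (r = 0.976, Spearman 0.809) and Stab1 (r = 0.970, Spearman 0.762), a scavenger receptor.

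Of 13 tested genes known to act upstream of the factors, 0 were called in either direction, with a median log2 fold change of 0.01. At an unadjusted p under 0.05 were 3 of the 13, all lower in value, beside 21.3% of all genes in either direction. The most abundant were Eya4, a transcriptional cofactor, at 85.5 ± 2.11 (ΔDMR1-U2) against 82.7 ± 1.98 CPM (wild-type), and Meox2, a homeobox factor of the limb muscle lineage, at 60.7 ± 7.85 and 69.6 ± 3.13 CPM. Tcf21 had too few counts to test.

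The dimer partners of the bHLH factors, the E proteins Tcf3, Tcf4 and Tcf12, gave log2 fold changes of -0.08, -0.12 and -0.04, and 0 of the 3 were called. Tcf4 was at 265 ± 21.8 (ΔDMR1-U2) against 287 ± 11.4 CPM (wild-type), and Tcf12 at 223 ± 18.6 and 229 ± 10.5 CPM. Of 16 repressors, among them the Id proteins that sequester E proteins, 0 were called by edgeR, with a median of -0.06. At an unadjusted p under 0.05 were 4 of the 16, beside the same 21.3%: Id4 and Twist2 with higher values (log2 fold changes of 0.45 and 0.53) and Heyl and Bhlhe40 with lower ones (-0.31 and -0.46). Zeb1, a zinc-finger repressor of E-box genes, was at 132 ± 11.4 and 143 ± 7.53 CPM. Bhlhe40, a bHLH repressor known from the circadian clock, averaged 23.0 ± 2.96 CPM in ΔDMR1-U2 muscle against 31.7 ± 2.55 CPM in wild-type muscle. It was the only 1 of the 16 whose groups did not overlap, beside 12.8% of all genes. Its log2 fold change of -0.46 (SE 0.10) missed the threshold by edgeR with all libraries (adjusted p = 0.0556), while DESeq2 gave an adjusted p of 0.00252. Bhlhe40 was called in 5 settings and in none of the others. These were DESeq2, the authors' deposited table, and edgeR with no filter, without ΔDMR1-U2 library 1A or without ΔDMR1-U2 library 2. DESeq2 called 1 of the 16, where it called 6.15% of all genes.

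Of 17 tested partners and repressors of MEF2 proteins, 0 were called by edgeR and the median was -0.11. At an unadjusted p under 0.05 were 5 of the 17, 2 higher and 3 lower in value, beside 21.3% of all genes in either direction. The most abundant were Tead1, a factor that binds muscle promoters beside MEF2, at 190.5 ± 25.7 (ΔDMR1-U2) against 196 ± 13.7 CPM (wild-type), and the acetyltransferase Ep300, at 126 ± 11.1 and 111 ± 10.8 CPM. The class II histone deacetylases Hdac4, Hdac5, Hdac7 and Hdac9, which hold MEF2 proteins in check, had log2 fold changes of 0.16, 0.05, 0.09 and -0.23. Srf, serum response factor, picked after its values were seen, was at 67.5 ± 8.54 (ΔDMR1-U2) against 87.1 ± 5.76 CPM (wild-type), with a log2 fold change of -0.37 (adjusted p = 0.0704 by edgeR and 0.0100 by DESeq2). It was the only 1 of the 17 called by DESeq2, which called 6.15% of all genes. Mef2b, the remaining MEF2 gene, had 0.460 ± 0.140 and 0.473 ± 0.138 CPM and was not tested.

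Among these lists of regulators, partners and targets, the lowest median was that of the differentiation and fusion targets. Of 22 tested, 0 were called by edgeR, 20 had a negative log2 fold change and the median was -0.20, and 11 had an unadjusted p under 0.05, all of them lower in value, where 21.3% of all genes passed that p in either direction. Leaving out single libraries moved that median between -0.24 and -0.13. The most abundant were Acta1, skeletal actin, at 12977 ± 1231 (ΔDMR1-U2) against 14729 ± 2110 CPM (wild-type), and Ckm, muscle creatine kinase, at 4717 ± 417 and 5507 ± 1008 CPM. DESeq2, which called 6.15% of all genes, called 4 of the 22, each lower: Actc1, the cardiac actin of developing muscle, at a log2 fold change of -0.68, Tmem8c (myomaker, a fusion protein) at -0.46, Myh3, embryonic myosin, at -0.34, and Mylpf, a fast myosin light chain, at -0.33. Their adjusted p values by edgeR were 0.0768, 0.0949, 0.133 and 0.0917. The summed fibre markers were at 161300 to 181550 CPM in ΔDMR1-U2 and at 176900 to 208374 CPM in wild-type. Most of that sum was Ttn, which is not on the list of 22 targets used here, at 111154 ± 7979 (ΔDMR1-U2) and 123451 ± 7700 CPM (wild-type). However, 6 of the 9 fibre markers (Acta1, Ckm, Des, Myh3, Mylpf and Tnnt3) are among the 22 targets, so the sum is not wholly separate from them. The sums of the 4 Schwann cell markers did not overlap between the groups, at 76.6 to 121 CPM in ΔDMR1-U2 and 35.9 to 71.3 CPM in wild-type. Their median log2 fold change was 0.63, and 3 of the 4 had an unadjusted p under 0.05, with 0 called by edgeR. Cidea, a lipid droplet protein of brown fat named after its values were seen, rose, at 21.9 ± 6.78 CPM against 10.5 ± 0.540 CPM in wild-type (edgeR adjusted p = 0.0301). It was the only 1 called of the 4 brown adipocyte markers tested. Ppargc1a, Dio2 and Elovl3 had log2 fold changes of 0.12, 0.29 and -0.25, and Ucp1 was not tested, at 0.038 (ΔDMR1-U2) and 0.028 CPM (wild-type). The part of these cell types in the target values was not tested.

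**Figure D5:**
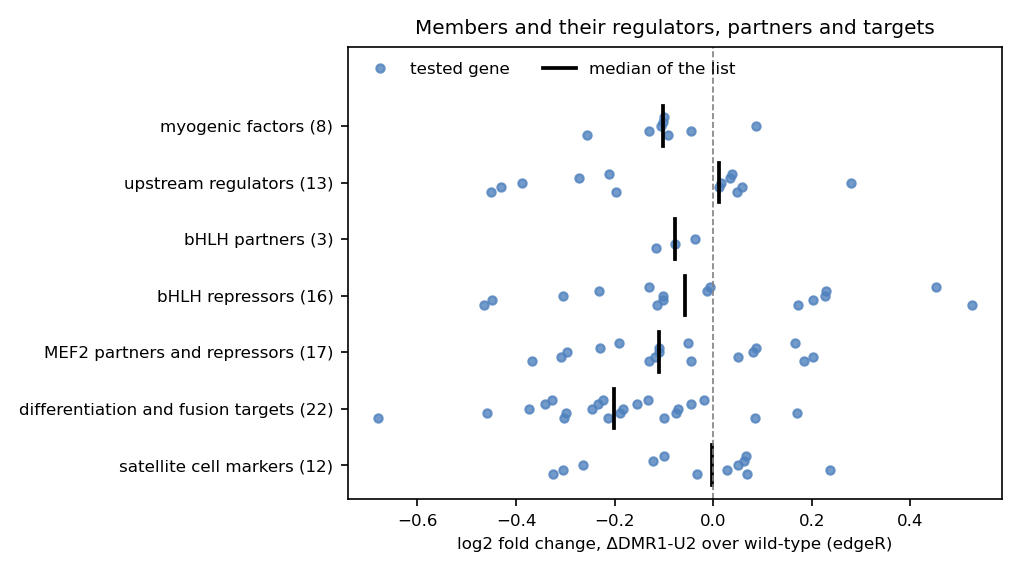
Log2 fold changes of ΔDMR1-U2 over wild-type for the tested genes of each list (number tested in brackets), with a black bar at the list's median. The median is -0.10 for the myogenic factors and -0.20 for the 22 targets, and 20 of those 22 lie below 0.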

How the data were processed

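One deposited table was used. The submitters' processing notes name DESeq2 1.4.5 and HTSeq 0.5.4p3, TopHat2 2.0.9, Bowtie2 2.1.0 and FastQC 0.10.1, and the build mm10; no role, setting, annotation or strand is stated. Per the file headers, it holds a raw count per gene and sample, deposited without normalization. It also holds the authors' mean normalised counts, a signal scaled by size factors, their deposited fold (wild-type divided by ΔDMR1-U2) as a ratio and as log2, and a deposited p-value, raw and adjusted.

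The counts were tested with edgeR 4.0.16 (quasi-likelihood, TMM scaling, filterByExpr at a minimum count of 10) in R 4.3.3, with Benjamini-Hochberg adjustment over 15241 genes and a threshold of 0.05. DESeq2 1.42.0 was an alternative, with RLE size factors, no filter, a replicate block and libraries left out. The edgeR script was checked on simulated counts. CPM uses library totals times TMM factors, and lengths and positions come from GENCODE vM21, the same assembly. The biological coefficient of variation was 12.3%. Members and lists were chosen with earlier results of these data known. Named genes are all members and, per list, called genes or the 2 most abundant, plus the 2 most alike genes per member. Others were named after their values were seen: Vcam1, Sdc4, Tcf3, Bhlhe40's DESeq2 value and its calls in other settings, the Hdac genes and Srf. So were Cidea and the other brown adipocyte markers, Id4, Twist2, Heyl, Mef2b and the genes called by DESeq2.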

Additional observations from a re-analysis of the deposited data

Results flagged for a closer look

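In 5 of 16 groups of 4 libraries (8 genes, 2 genotypes), 1 library lay so far from the other 3 that its gap exceeded Dixon's 95% critical share of the group's range; chance flags about 1 group in 20. ΔDMR1-U2 library 1B was low for Pax7, at 15.4 CPM against 20.6 to 21.8 CPM in the others of its group, and for Mef2c, at 520 CPM against 746 to 804 CPM, the latter only just past the critical value. Mef2a was high in wild-type library 2, at 124 CPM against 99.7 to 102 CPM. Mef2d was high in ΔDMR1-U2 library 3, at 91.6 CPM against 72.7 to 73.4 CPM, and low in wild-type library 1B, at 72.0 CPM against 87.7 to 91.1 CPM.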

How the results depend on the processing

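The members called stayed at 0 by edgeR with RLE size factors, with no filter, with a replicate block, with any 1 library left out and without ΔDMR1-U2 libraries 1A and 1B, as well as by DESeq2 and in the authors' deposited table. The count of all genes called, 172, moved far more: it was 930 by DESeq2, 16 without ΔDMR1-U2 libraries 1A and 1B, 13 with the replicate block, and 7 to 631 when 1 library was left out, so the background share of called genes is itself unstable; the cause was not tested. Same-named libraries of the 2 groups did not deviate together (correlations of -0.22, -0.18, -0.08 and -0.08 for 1A, 1B, 2 and 3). These correlations cannot exclude a shared litter, batch or day, and no label says what the names mark. The sign of 3 members depended on single libraries. Leaving out 1 library gave log2 fold changes of -0.15 to 0.0029 for Pax7, -0.17 to 0.0016 for Myod1 and -0.11 to 0.018 for Myog, the highest without ΔDMR1-U2 library 1B for Pax7 and without wild-type library 1A for Myod1 and Myog. Without ΔDMR1-U2 libraries 1A and 1B those of Pax7 and Myod1 were 0.021 and 0.096. Myf5, Myf6, Mef2a, Mef2c and Mef2d kept their sign in these alternatives but not their size: leaving out 1 library gave 0.04 (without wild-type 3) to 0.14 (wild-type 1A) for Myf5, -0.15 (wild-type 2) to -0.04 (wild-type 1A) for Myf6, -0.16 (ΔDMR1-U2 1A) to -0.02 (wild-type 2) for Mef2a, -0.32 (ΔDMR1-U2 2) to -0.13 (ΔDMR1-U2 1B) for Mef2c and -0.22 (ΔDMR1-U2 3) to -0.10 (wild-type 3) for Mef2d. With the longest transcript as length, an alternative chosen after seeing the data, the Mef2d share of the MEF2 sum in wild-type was 9.25% and that of Mef2c 79.5%. The low counts of Pax3 limit what can be said of it.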
